A study of Mus musculus with 12 samples.

Results

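Major histocompatibility complex (MHC) class II antigen presentation was followed through 7 genes in mouse retina, 7 days after silicate or gold nanoparticles were injected into the vitreous. The genes were chosen by name and are H2-Aa, H2-Ab1, H2-Eb1, Cd74, H2-DMa, H2-DMb1 and Ciita. Each was read by 1 probe, which makes 7 of the 39429 probes and 7 of the 32496 genes on the array. All 7 passed the filter on dim probes and were among the 23237 genes tested. The mice were C57BL/6 males, 5 weeks old at injection, and only right eyes were injected. They received silicate particles of 100 nm, silicate particles of 20 nm, gold particles of 100 nm, gold particles of 20 nm, or phosphate-buffered saline (PBS). Retinas of 4 right eyes were pooled in a tube, and each particle group had 3 tubes, hence 12 mice, so the spread between single mice cannot be seen. The labels do not say how many PBS tubes there were or which of them lay on which array. On each of the 12 two-colour Agilent arrays, RNA of a particle tube was labelled with Cy5 and RNA from PBS-injected eyes with Cy3. An uninjected eye was not analysed here, and all groups, PBS included, had an intravitreal injection. The strain entry of the PBS channel is C57BL/6 on the gold arrays and runs from C57BL/7 to C57BL/12 on the silicate arrays, while the protocol names C57BL/6 for all mice, and the protocol was followed.

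A class II molecule is a pair of an alpha and a beta chain that shows peptides from engulfed material to CD4+ T cells. The invariant chain fills the peptide groove while the pair is built, proteases such as cathepsin S then cut it down, and the DM protein removes what is left and helps other peptides to bind. The transactivator Ciita switches on most genes of this pathway, together with factors that sit on conserved promoter boxes. In the eye, class II is best known on macrophages, activated microglia and dendritic cells, and interferon-gamma is its classical inducer.

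A log2 ratio is positive where the particle tube was brighter than the PBS tube on the same array, and a level is the normalized log2 intensity of a single channel. Replicate 1, 2 and 3 of every group lay on slide 1, 2 and 3, so each slide held 1 array of each particle group. The dyes were not exchanged, so a dye effect of a probe is part of every ratio to PBS and cancels between particle groups. Median raw intensities lay between 227 and 297 in Cy5 and between 199 and 262 in Cy3, no spot was saturated, and the number of arrays limits the precision. The 8 rod photoreceptor markers, looked at to check the labelled tissue, were all well above background in both channels of all 12 arrays. Over all genes tested, log2 ratios of the slide 1 arrays had correlations of 0.85 to 0.95 with each other and of -0.73 to -0.54 with the silicate arrays of slide 3 (Pearson, across genes, which are not independent replicates). Dyes are stated in the labels of every array, and the ratios kept that direction. The slides are therefore given one by one before any group mean.

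The chains of the class II pair stood far below PBS on slide 1, near or above it on slide 2, and far above it in the silicate tubes of slide 3. H2-Ab1, the beta chain of the I-A molecule, had log2 ratios on slide 1 of -1.80 with silicate 100 nm, -1.88 with silicate 20 nm, -2.47 with gold 100 nm and -2.33 with gold 20 nm. On slide 2 its ratios were 0.48, 1.25, 0.86 and 1.03 in the same order of particles. On slide 3 they were 3.15 and 3.29 with silicate 100 nm and 20 nm, and -0.54 and -0.66 with gold 100 nm and 20 nm. The sign of the H2-Ab1 ratio thus went with the slide, and on slide 3 with the material of the particle. H2-Aa, the alpha chain of I-A, had ratios on slide 1 of -2.19 with silicate 100 nm, -2.13 with silicate 20 nm, -2.94 with gold 100 nm and -2.40 with gold 20 nm. They were 0.23, 0.75, 0.25 and 0.82 on slide 2, and 4.01, 4.85, -0.13 and -0.49 on slide 3, in that order. H2-Aa reached the highest ratio of any of the 7 genes, in the silicate 20 nm tube of slide 3. On slide 2 H2-Aa was well above background in 3 of the 4 particle channels and in 1 of the 4 PBS channels, and on slide 3 it was not so in the gold 20 nm tube.

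H2-Eb1, the beta chain of the I-E molecule, followed the I-A chains. C57BL/6 mice lack a working alpha chain of I-E, so the transcript is made without the complete molecule. Its ratios on slide 1 were -1.72 with silicate 100 nm, -1.68 with silicate 20 nm, -2.32 with gold 100 nm and -2.30 with gold 20 nm. On slide 2 the order held values of 0.56, 1.57, 1.05 and 1.30, and on slide 3 of 2.64, 2.82, -0.87 and -0.93. Both silicate ratios lay above both gold ratios on slides 1 and 3, an order found for 20.3% and 33.6% of all genes there. Silicate and gold tubes overlapped on slide 2.

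Cd74, which encodes the invariant chain, had ratios on slide 1 of -2.17 with silicate 100 nm, -2.40 with silicate 20 nm, -3.11 with gold 100 nm and -3.03 with gold 20 nm. Slide 2 gave -0.14, 1.22, 0.73 and 0.29, and slide 3 gave 3.54, 4.20, -0.96 and -0.64, in the same order.

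The DM genes encode the peptide editor. H2-DMb1, its beta chain, had ratios on slide 1 of -2.20 with silicate 100 nm, -1.89 with silicate 20 nm, -2.37 with gold 100 nm and -2.50 with gold 20 nm. They were 0.36, 0.62, 1.04 and 1.17 on slide 2, and 3.62, 3.93, -0.07 and -0.34 on slide 3. A closely related copy, H2-DMb2, lies beside it in the genome, and whether the H2-DMb1 probe also binds its transcript was not tested. H2-DMa, the alpha chain, moved less, with ratios on slide 1 of -1.24, -1.14, -1.43 and -1.12 for silicate 100 nm, silicate 20 nm, gold 100 nm and gold 20 nm. On slide 2 its ratios were 0.13, 0.08, 0.23 and 0.22, and those of slide 3 were 2.28, 3.03, 0.03 and -0.08.

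Ciita, the transactivator, had the narrowest range of the 7 genes. On slide 1 its ratios were -1.11 with silicate 100 nm, -1.33 with silicate 20 nm, -1.06 with gold 100 nm and -1.47 with gold 20 nm. Slide 2 gave -0.08, -0.03, 0.0017 and -0.29, and slide 3 gave 0.64, 1.01, -0.18 and -0.12. The gene was well above background in all PBS channels and in all particle channels except that of silicate 100 nm on slide 2. Its signal was low, with raw medians on slide 2 of 87 to 98 in Cy5 and 78 to 86 in Cy3, so its range depends on background handling. With the Agilent processed signals its ratios were -2.24 to -2.02 on slide 1, and 1.11 and 1.92 with silicate 100 nm and 20 nm on slide 3.

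**Figure D1:**
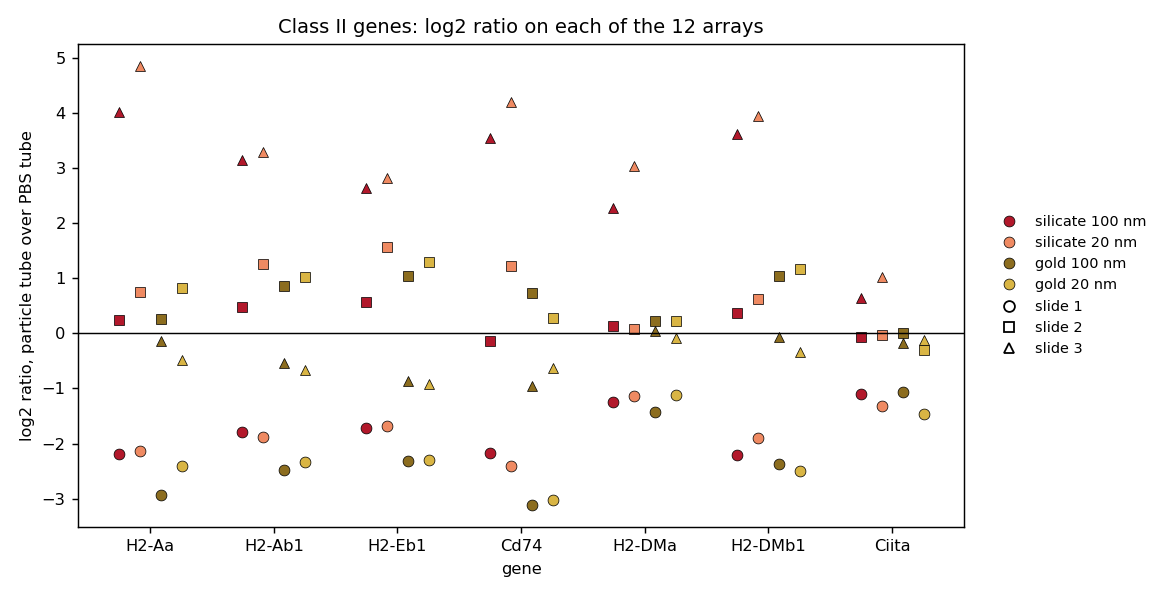
Log2 ratio of particle over PBS (vertical axis) of the 7 class II genes (horizontal axis) on each of the 12 arrays, with colour for the particle group and marker shape for the slide. All circles of slide 1 lie below -1, the silicate triangles of slide 3 lie at 0.64 to 4.85, and the gold triangles of slide 3 lie at -0.96 to 0.03.

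Counted over the 7 genes, the ratio was under -1 on all 4 arrays of slide 1 for 7 of 7, as it was for 4.21% of all genes tested. The cut-offs for this count, the others of this paragraph and those of the PBS channels were not preset. The 7 genes varied together and were chosen with earlier results known, so such counts describe these arrays and are not a test. On slide 3 the ratio was over 1 on both silicate arrays for 6 of 7, all but Ciita, against 6.48% of all genes. With the Agilent processed signals or the authors' deposited table it was 7 of 7, Ciita included. Both silicate ratios lay above both gold ratios for 7 of 7 genes on slide 3, where this held for 33.6% of all genes, a common order on that slide. Both silicate Cy5 levels were likewise above both gold Cy5 levels for 7 of 7 (25.4% of all genes). Silicate ratios above gold ratios were seen for 5 of 7 on slide 1 (20.3% of all genes), and for 0 of 7 on slide 2 (19.5%), where Ciita had that order with the processed signals or the deposited table. On slide 2, H2-DMa and H2-DMb1 had both silicate ratios below both gold ratios, an order found for 17% of all genes there. Only 3 of 7 genes, H2-Aa, H2-DMa and Ciita, stayed within 1 of 0 on all 4 arrays of slide 2, as 97.4% of all genes did. With the processed signals or the deposited table it was 2 of 7, since H2-Aa, whose PBS channel was not well above background on 3 of these arrays, was then above 2 with both 20 nm particles.

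The single channels show which side of the ratio differed between slides. H2-Ab1 had levels in the particle tubes of slide 1 of 11.80, 11.75, 11.18 and 11.28 for silicate 100 nm, silicate 20 nm, gold 100 nm and gold 20 nm, against 13.62 ± 0.02 in the PBS channels (mean ± SD over the 4 arrays of the slide). On slide 2 the particle tubes were at 9.58, 10.44, 9.96 and 10.13, and the PBS channels at 9.12 ± 0.04. On slide 3 the silicate tubes were at 15.00 and 16.00 and the gold tubes at 9.70 and 9.59, while the PBS channels had 11.84 and 12.71 on the silicate arrays and 10.24 on both gold arrays. The PBS channel of slide 1 was thus higher than that of slide 2 by 4.50 for H2-Ab1. For the other members this PBS difference was 4.92 for H2-Eb1, 3.57 for Cd74, 3.37 for H2-DMb1, 3.36 for H2-Aa, 1.46 for H2-DMa and 1.16 for Ciita. For H2-Aa only 1 of the 4 PBS channels of slide 2 was well above background, so its difference there is less well measured. All 4 PBS channels of slide 1 lay above all 8 others for 7 of 7 genes, an order that held for 21.3% of all genes, and did so by over 1 for 3 of 7, Cd74, H2-Aa and H2-DMb1, against 4.81% of all genes.

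The PBS channels therefore had their own spread between slides. Cd74 was at 12.47 to 12.57 in the PBS channels of slide 1, at 8.91 to 8.96 on slide 2 and at 9.50 to 10.99 on slide 3. Its particle tubes were at 9.40 to 10.32 on slide 1, at 8.81 to 10.17 on slide 2, and on slide 3 at 13.89 and 15.18 with silicate 100 nm and 20 nm and 8.54 and 8.92 with gold 100 nm and 20 nm. Averaged over slides, the silicate 20 nm tubes ranked first and the silicate 100 nm tubes second for 6 of 7 genes, then PBS, then the gold tubes. For H2-Ab1 these means were 12.1 ± 2.72 with silicate 100 nm, 12.7 ± 2.91 with silicate 20 nm, 10.3 ± 0.79 with gold 100 nm, 10.3 ± 0.86 with gold 20 nm and 11.3 ± 2.25 in PBS (SD, n = 3 tubes or slides). For Ciita, PBS ranked first with 7.13 ± 0.68, against 6.88 ± 0.39 with silicate 100 nm and 6.97 ± 0.59 with silicate 20 nm. In none of the 7 genes was the gap between neighbours in this order larger than the bigger SD of the pair.

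**Figure D2:**
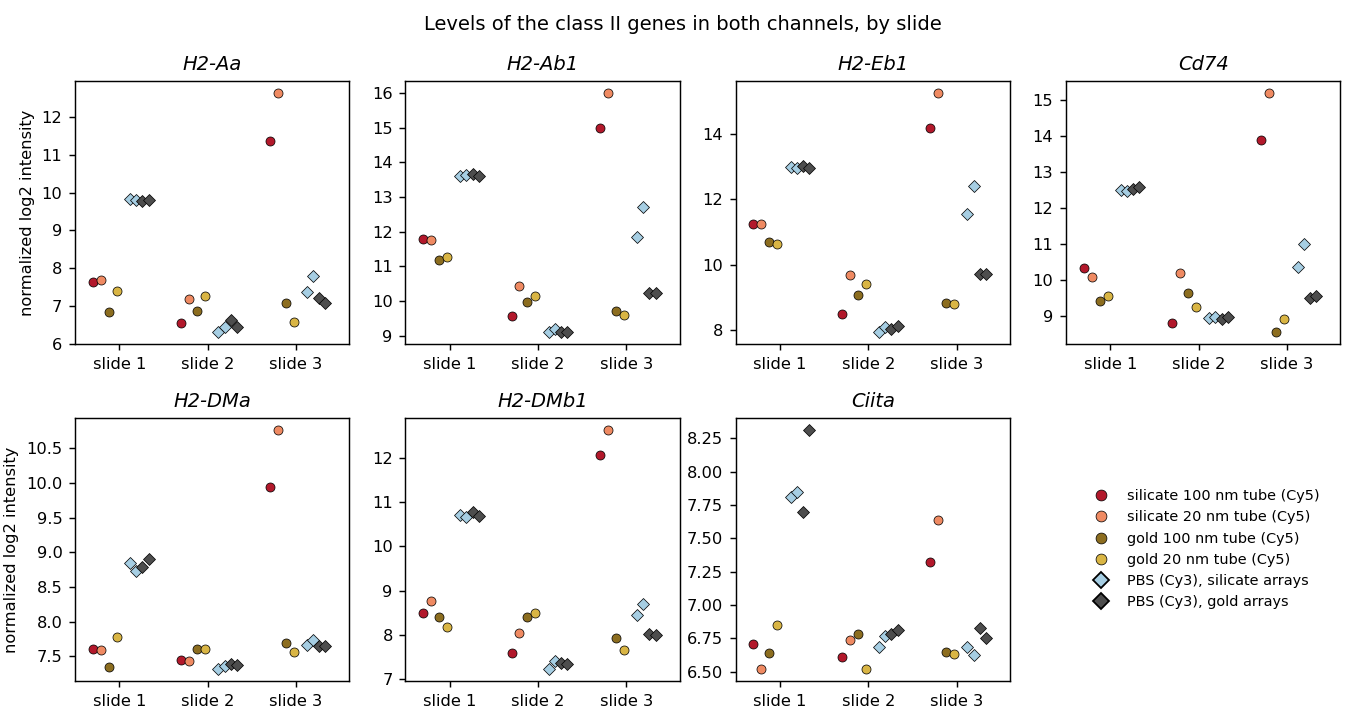
Normalized log2 intensity (vertical axis) of each gene in the particle tubes (Cy5, circles) and PBS channels (Cy3, diamonds) by slide (horizontal axis), 1 panel per gene with its own axis. PBS diamonds are highest on slide 1 for each gene, and on slide 3 the pale PBS diamonds of the silicate arrays stand above the dark ones of the gold arrays for 6 of 7 genes.

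Within slide 3 the PBS channel was not the same on the silicate and the gold arrays. The Cy3 level was higher on the silicate arrays by 2.26 for H2-Eb1, 2.03 for H2-Ab1, 1.14 for Cd74, 0.57 for H2-DMb1, 0.44 for H2-Aa and 0.05 for H2-DMa, with a difference of -0.14 for Ciita. Among the 23219 genes with this value, H2-Eb1 ranked 9 and H2-Ab1 ranked 14 from the top, and 0.693% of them differed by over 0.5. Both Cy3 levels of the silicate arrays lay above both of the gold arrays for 6 of 7 class II genes, all but Ciita, against 3.78% of all genes. The raw scanner medians showed it too: the Cy3 signal of H2-Ab1 on slide 3 was 3042.5 and 5571.5 on the silicate 100 nm and 20 nm arrays, against 986 and 1014.5 on the gold 100 nm and 20 nm arrays. The matching raw Cy5 signals were 33656.5 and 68288 for silicate 100 nm and 20 nm, against 996 and 688 for gold 100 nm and 20 nm. Of the 156 genes whose Cy5 level was higher by over 4 on the silicate arrays of slide 3, 84 had a Cy3 level higher by over 0.5. Macrophage genes with a Cy5 difference above that of any class II gene differed in this, Lyz2 having a Cy3 difference of 2.98 and Ms4a7 of -0.04. Which PBS tube lay on which array is not stated in the labels, and the part of the PBS tube or of the scan in these Cy3 differences was not tested. Ratios of the 7 genes on the silicate arrays of slide 3 rest on those Cy3 values.

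**Figure D3:**
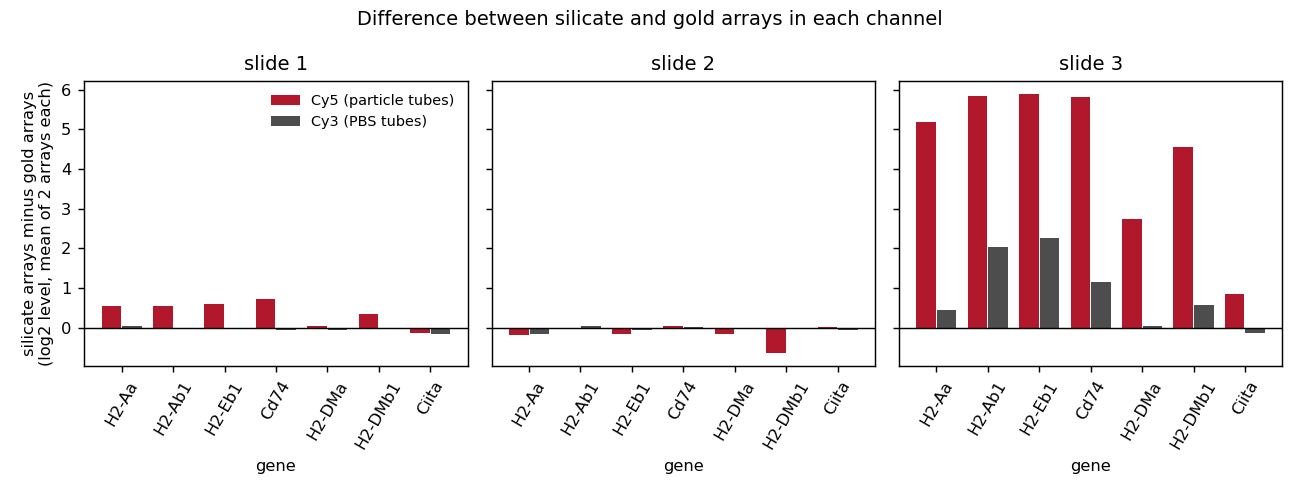
Difference between silicate and gold arrays in mean log2 level (vertical axis, 2 arrays each) for the 7 genes on each slide, red bars for the particle channel (Cy5) and grey bars for the PBS channel (Cy3). On slide 3 the red bars reach 5.89 and the grey bars 2.26, both for H2-Eb1, while on slides 1 and 2 the grey bars stay close to 0.

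No class II gene passed the test in any comparison with PBS. With all 12 arrays in one limma fit and Benjamini-Hochberg adjustment over all genes, 0 of 7 were called with silicate 100 nm (0.99% of all genes called), silicate 20 nm (2.08%), gold 100 nm (0.977%) or gold 20 nm (0.706%). At an unadjusted p under 0.05 the count was also 0 of 7 in each, where 10.8%, 15.5%, 12.1% and 8.79% of all genes passed in that order. With the slide as a random block it was 0 of 7 again, with 0.826%, 1.25%, 0.676% and 0.538% of all genes called. With the slide as a fixed replicate block it was 0 of 7 as well, with 4.03%, 8.76%, 6.71% and 4.47% called. The median log2 change of the 7 genes was 0.49 with silicate 100 nm, 0.89 with silicate 20 nm, -0.72 with gold 100 nm and -0.64 with gold 20 nm, where the median over all genes lay between -0.016 and 0.010. Leaving out 1 slide turned each of these: without slide 3 the medians were -0.66 with silicate 100 nm and -0.59 with silicate 20 nm, and without slide 1 they were 0.09 with gold 100 nm and 0.16 with gold 20 nm. Cd74 averaged 0.41 ± 2.89 with silicate 100 nm, 1.01 ± 3.31 with silicate 20 nm, -1.11 ± 1.93 with gold 100 nm and -1.13 ± 1.71 with gold 20 nm (log2 ratio, SD, n = 3). The SD exceeded the size of the mean in each of these groups. The 95% confidence interval of Cd74 was -2.58 to 3.40 with silicate 100 nm and -4.11 to 1.86 with gold 20 nm. That of Ciita, a gene with low signal, was narrower, -1.20 to 0.84 with silicate 100 nm and -1.65 to 0.39 with gold 20 nm. Fewer cells of a type and less RNA per cell cannot be told apart in such pooled tissue.

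Over all particles, 0 of 7 were called, while 14.8% of all genes were, and 0 of 7 had an unadjusted p under 0.05, as 30% of all genes did. The class II median was 0.03, with single values of -0.33 for Ciita up to 0.11 for H2-DMb1. Ciita came closest, with an adjusted p of 0.363 and a confidence interval of -0.84 to 0.18, and it was above 0 on 3 of the 12 arrays. With the slide as a fixed replicate block its adjusted p was 0.0192, in a fit that calls 34.8% of all genes, and with the slide as a random block it was 0.675, where 1.69% are called. Without replicate 3 the mean log2 ratio of Ciita was -0.67, and without replicate 1 it was 0.12.

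Silicate set against gold gave the largest estimates, and these did not pass either. All 7 genes had a difference above 0, with a median of 1.38, against 0.02 over all genes, of which 12961 were above 0. The difference, silicate minus gold, was 1.83 (SE 1.34) for Cd74, 1.74 (SE 1.38) for H2-Aa, 1.44 (SE 1.13) for H2-Ab1 and 1.38 (SE 1.06) for H2-Eb1. For the DM genes it was 1.25 (SE 1.27) for H2-DMb1 and 0.88 (SE 0.79) for H2-DMa, and for Ciita it was 0.37 (SE 0.46). Each had an adjusted p of 0.881 by limma, 0 genes of all tested were called (0%), and 1206 of them, or 5.19%, had an unadjusted p under 0.05, with 0 of 7 class II genes among them. The random block called 0.0646% of all genes and 0 of 7. With the slide as a fixed replicate block 0 genes passed after adjustment, and 3 of 7, Cd74, H2-Ab1 and H2-Eb1, had an unadjusted p under 0.05, with 16.3% of all genes. The adjusted p of Cd74 was 0.300 in that fit. For Cd74 the confidence interval was -1.16 to 4.82, which covers no difference as well as one of many-fold. Read from the Cy5 levels alone, a setting added after the Cy3 values were seen, the difference was 2.20 (SE 1.00) for Cd74 with an adjusted p of 0.418, and 0.24 (SE 0.19) for Ciita with an adjusted p of 0.557.

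The difference between materials lay mostly in slide 3. Within slides, silicate minus gold for the Cd74 ratio was 0.79 on slide 1, 0.03 on slide 2 and 4.67 on slide 3. For H2-Ab1 it was 0.56, -0.08 and 3.82, and for H2-DMb1 it was 0.39, -0.61 and 3.98. Ciita had 0.04, 0.09 and 0.98. Without slide 3 the median difference of the 7 genes was 0.23. Leaving out only the 2 silicate arrays of slide 3 took it to -0.02. That value sets silicate of slides 1 and 2 against gold of slides 1, 2 and 3, so it is not a difference within slides.

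No difference by particle size was detectable at this spread. The 100 nm minus 20 nm difference had a median of -0.17 over the 7 genes, from -0.36 for H2-Aa to 0.07 for Ciita, with an adjusted p of 1 for each in limma and 0% of all genes called. The confidence interval was -3.45 to 2.73 for H2-Aa and -0.95 to 1.09 for Ciita. At an unadjusted p under 0.05 there were 0 of 7, with 0.99% of all genes. The interaction of size and material had a median of -0.28, again with an adjusted p of 1 for each gene, 0% of all genes called, and 0 of 7 against 0.611% of all genes at an unadjusted p under 0.05.

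**Figure D4:**
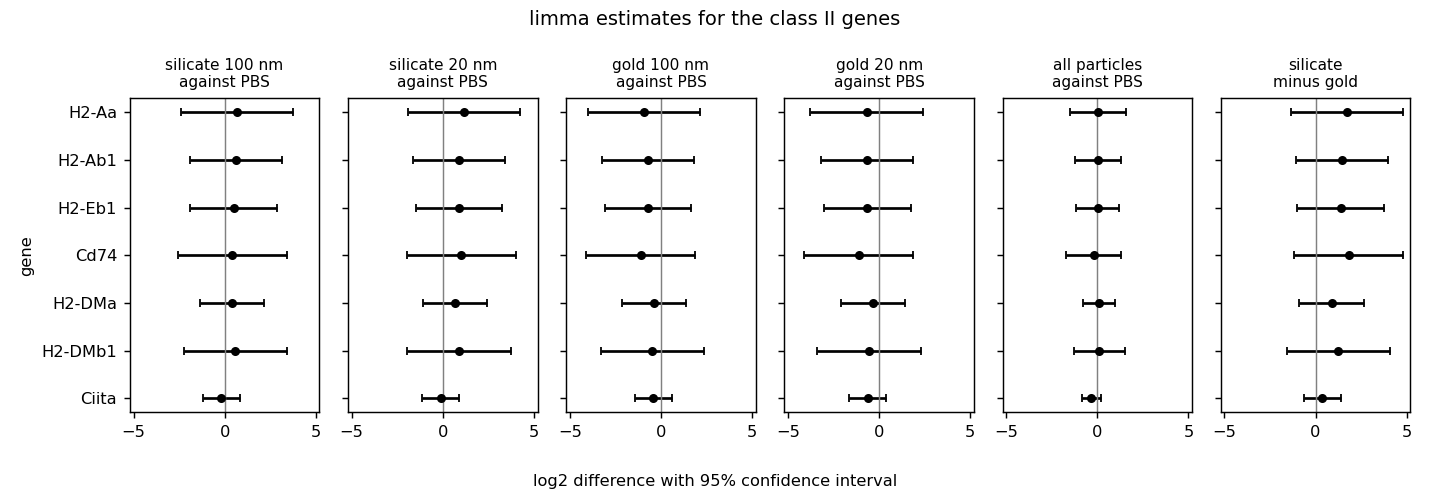
Estimates of the limma fit for the 7 genes (rows) in 6 comparisons (panels), as log2 difference (horizontal axis) with 95% confidence interval. Every interval includes 0, and those of silicate minus gold are centred between 0.37 and 1.83.

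The 7 genes varied together from array to array. Over the 12 arrays, Pearson correlations of the log2 ratio between members ranged from 0.897, for H2-Eb1 and H2-DMa, to 0.990, with a median of 0.965 over the 21 pairs. These arrays fall into groups by slide and so are not independent points, and which of them share PBS RNA is not stated. Of 15559 further genes with a symbol and a value on each array, those most like the mean of the 7 were C1ra (r = 0.995), Wdfy4 (0.994), Il6ra (0.994), Rhbdf1 (0.994), Plekhg2 (0.994) and Tent5a (0.993). Wdfy4, a gene needed for cross-presentation by dendritic cells, had mean ratios of -2.89 with silicate and -3.80 with gold on slide 1, 0.27 and 0.41 on slide 2, and 3.77 and -0.64 on slide 3. C1ra, a protease of the complement cascade, had -1.46 with silicate and -2.22 with gold on slide 1, 0.73 and 1.12 on slide 2, and 4.24 and -0.28 on slide 3.

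Promoter sequence was looked at because the genes varied together and class II promoters are known for shared boxes. Of the 7 genes, 5 lie on chromosome 17, the H2 genes. RefSeq promoter windows of GRCm38.p6, 250 bases before to 50 after a gene's start, matched 4 of the 7. Shown are the 3 that hold GNAACT followed by GATTGG with 20 to 40 bases between, searched on both strands, letters that resemble the X and Y boxes and were chosen after these windows had been read. The windows are chr17:34152941-34153240 on the plus strand for H2-DMb1, chr17:34287774-34288073 on the minus strand for H2-Aa and chr17:34305617-34305916 on the plus strand for H2-Eb1, each written 5′ to 3′ along its gene with the paired motifs in capitals.
H2-DMb1: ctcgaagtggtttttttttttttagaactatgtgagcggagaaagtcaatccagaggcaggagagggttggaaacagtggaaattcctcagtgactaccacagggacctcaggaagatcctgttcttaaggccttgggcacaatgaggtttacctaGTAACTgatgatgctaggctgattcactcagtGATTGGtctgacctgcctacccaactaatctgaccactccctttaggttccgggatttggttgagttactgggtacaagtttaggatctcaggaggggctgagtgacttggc
H2-Aa: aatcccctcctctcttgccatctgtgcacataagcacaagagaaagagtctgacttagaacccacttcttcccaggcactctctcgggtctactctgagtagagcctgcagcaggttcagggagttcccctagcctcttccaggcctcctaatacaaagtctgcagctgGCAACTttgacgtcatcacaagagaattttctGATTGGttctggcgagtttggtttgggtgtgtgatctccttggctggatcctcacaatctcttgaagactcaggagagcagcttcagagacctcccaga
H2-Eb1: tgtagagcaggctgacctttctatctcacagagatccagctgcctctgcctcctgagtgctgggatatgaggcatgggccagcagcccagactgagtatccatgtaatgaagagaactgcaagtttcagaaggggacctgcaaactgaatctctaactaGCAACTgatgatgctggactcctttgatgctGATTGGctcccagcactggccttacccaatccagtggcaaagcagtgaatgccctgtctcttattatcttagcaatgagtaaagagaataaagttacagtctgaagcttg
The first motif starts 94, 81 and 91 bases before the gene's start in H2-DMb1, H2-Aa and H2-Eb1, and 26, 26 and 25 bases separate it from the second. The pair is present in 114 of 32851 RefSeq windows, or 0.347%, while GNAACT alone is in 42.8% and GATTGG alone in 16.1%. The 2 windows of H2-DMa lack the pair. A match is a description of letters and says nothing of binding in these retinas.

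The factors that bind those boxes had a list median near 0 on every array, with members apart from it in both directions on slide 1. The class II transcription list had 7 genes, all measured, namely Rfx5, Rfxap and Rfxank of the RFX complex, Nfya, Nfyb and Nfyc of NF-Y, and Creb1. Its median log2 ratio stayed between -0.05 and 0.20 on all 12 arrays. Over all particles 2 of 7 genes were higher (28.6%, with 8.43% of all genes called higher), and no other comparison called one. Rfxap rose by 0.26 ± 0.17 (SD over 12 arrays, adjusted p = 0.00971 by limma), above 0 on 11 of 12 arrays, and Rfx5 by 0.14 ± 0.09 (adjusted p = 0.0235), above 0 on 12 of 12. With the slide as a random block the adjusted p was 0.168 for Rfxap and 0.439 for Rfx5. With the slide as a fixed replicate block it was 0.000974 and 0.0155 by limma, in a fit that calls 34.8% of all genes. A second probe of Rfx5 read 0.17. Nfya, which was not called, had mean ratios of -0.83 with silicate and -0.87 with gold on slide 1, 0.01 and -0.27 on slide 2, and 0.34 and 0.07 on slide 3. Also on slide 1, Rfxap was at 0.48 with silicate and 0.37 with gold, and Rfxank at -0.46 and -0.30. The probes of Rfxap and Rfx5 measure a ratio of Cy5 to Cy3 with no dye exchange. A dye effect of the size of their rise and a change cannot be told apart.

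Genes that load class II or act beside it were called in 0 comparisons by limma, with at most 1 gene per comparison at an unadjusted p under 0.05, where 0% to 14.8% of all genes were called and 0.611% to 30% had such a p. Of 13 listed, 12 were measured, all but H2-DMb2. Ctss, the cathepsin S gene, had mean ratios of -2.49 with silicate and -3.91 with gold on slide 1, 0.66 and 1.22 on slide 2, and 5.29 and -0.59 on slide 3. Ifi30, a lysosomal reductase that opens antigens for class II, had -2.51 and -2.71, then 0.32 and 0.55, then 3.03 and -0.15 on the 3 slides. These followed the pattern of the class II genes, silicate far above gold on slide 3. Cd86, a co-stimulatory ligand, was at 2.75 with silicate and -0.06 with gold on slide 3, and Cd40, a co-stimulatory receptor, at 2.72 and -0.08. Lgmn, the asparagine endopeptidase, was at 1.28 and -0.02. Cd80, a second co-stimulatory ligand, was at -0.57 with silicate and 0.10 with gold on that slide, and Marchf1, a ubiquitin ligase that removes class II from the surface, was at 0.03 and 0.11. The list's median for silicate minus gold was 0.65, with 11 of 12 above 0.

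Interferon-gamma signalling genes were likewise called in 0 comparisons by limma, with 1 gene at an unadjusted p under 0.05, over all particles. Of all genes, 0% to 14.8% were called per comparison, and 30% had such a p over all particles. Of 9 listed, 8 were measured, and Ifng, the cytokine itself, did not pass the filter on dim probes. Irf1, an interferon-induced transcription factor, had mean ratios of -1.80 with silicate and -2.57 with gold on slide 1, 0.38 and 0.63 on slide 2, and 3.29 and -0.67 on slide 3. A second Irf1 probe, much dimmer with a mean log2 intensity of 6.40 against 11.37, read -0.04 ± 0.10 over the 12 arrays. Irf8, a factor of myeloid cells, reached 3.16 with silicate and -0.39 with gold on slide 3, and Socs1, an inhibitor of the receptor's kinases, 2.21 and -0.02.

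Macrophage, dendritic cell and neutrophil markers had medians below 0 on slide 1 and above 0 with silicate on slide 3, as the class II genes had. B and T cell markers did not share the low medians of slide 1, though the B cell median rests on 3 genes. The summed B cell level was below that of PBS on slide 1. The 14 macrophage and microglia markers, all measured and all well above background throughout, had median log2 ratios on slide 1 of -2.36, -1.21, -2.80 and -2.17 for silicate 100 nm, silicate 20 nm, gold 100 nm and gold 20 nm. Slide 2 gave medians of 0.21, 0.29, 0.47 and 1.06 in that order, and slide 3 gave 3.23, 3.23, -0.65 and -0.39. Their summed level, the log2 of the summed intensities, was 17.73 and 18.04 in the silicate tubes of slide 3, 15.16 and 15.71 in its gold tubes, 15.39 to 15.66 in its PBS channels and 17.18 to 17.25 in the PBS channels of slide 1. The members and this list were thus high in the same tubes. P2ry12, a microglia marker, was at 0.45 with silicate and -0.09 with gold on slide 3, and Tmem119, another, at 1.56 and -0.42, while Adgre1, a macrophage receptor, was at 5.54 and -0.31.

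Of the 9 dendritic cell markers, 5 were measured. Their summed level was 11.46 and 11.83 in the silicate tubes of slide 3, 9.42 and 9.58 in its gold tubes and 9.61 to 9.71 in its PBS channels. Zbtb46 had no probe under that symbol, and Xcr1, Clec9a and Cd209a did not pass the filter on dim probes. The 6 measured neutrophil markers, of 8 listed, had summed levels of 17.51 and 17.74 in those silicate tubes, 11.78 and 11.83 in the gold tubes and 11.89 to 14.71 in the PBS channels, and 18.44 to 18.55 in the PBS channels of slide 1. On slide 2 they were at 13.24 and 14.02 with silicate 100 nm and 20 nm, against 11.91 and 12.36 with gold 100 nm and 20 nm. There the silicate minus gold difference in Cy5 level was 4.12 for S100a8 and 5.16 for S100a9, subunits of calprotectin, where that of Cd74 was 0.05. For the remaining measured neutrophil markers it was 0.46 for Lcn2, 0.13 for Camp, 0.09 for Elane and -0.05 for Mpo. On slide 3 this difference was 7.00 for S100a8, 7.41 for S100a9, 7.27 for Lcn2, 0.69 for Camp, -0.19 for Elane and -0.07 for Mpo. Only 3 of 7 B cell markers were measured, the other 4 not passing the filter, and 4 of 7 T cell markers. Of the 3 B cell markers, 1 was well above background in all 12 particle channels. B cell medians lay between -0.10 and 0.12 on all 12 arrays, and T cell medians between -0.07 and 0.17 except for 0.39 and 0.84 with silicate 100 nm and 20 nm on slide 3. The summed B cell level was 8.27 to 8.41 in the particle tubes of slide 1, against 9.10 to 9.22 in its PBS channels. On slide 3 that level was 9.59 and 9.68 with silicate 100 nm and 20 nm, against 8.36 and 8.32 with gold 100 nm and 20 nm. Cd79b, a chain of the B cell receptor, was at 2.53 with silicate and -0.21 with gold on slide 3, while Cd79a, its partner, was at -0.13 and -0.01. Against PBS, group means of Cd79a and Fcer2a, the third measured marker, lay between -0.08 and 0.01. Those of Cd79b were 0.28 with silicate 100 nm, 0.45 with silicate 20 nm, -0.64 with gold 100 nm and -0.63 with gold 20 nm (adjusted p 0.81 to 0.99 by limma). The B cell median thus says little about Cd79b. What share these cells have in the class II ratios was not tested.

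**Figure D5:**
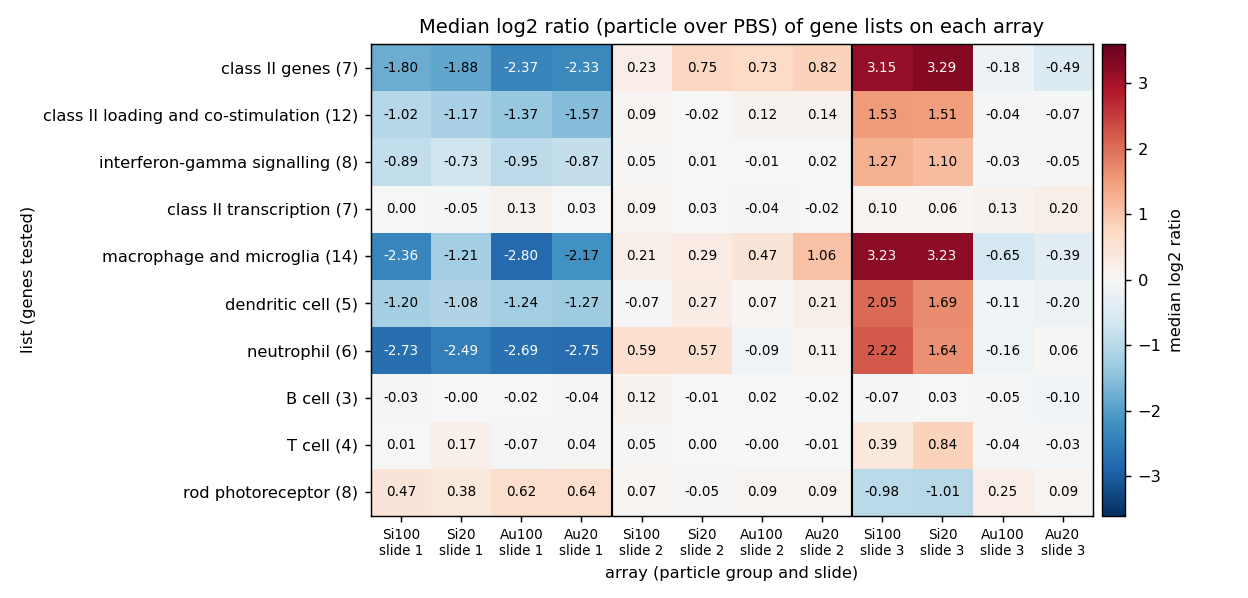
Median log2 ratio of particle over PBS for the class II genes and 9 gene lists (rows, with the number of genes measured) on the 12 arrays (columns, by slide), red above 0 and blue below. The class II row, at 3.15 and 3.29 on the silicate arrays of slide 3 and -2.37 to -1.80 on slide 1, has the same signs there as the macrophage, dendritic cell and neutrophil rows, and the class II transcription row stays within -0.05 to 0.20.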

How the data were processed

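Values of 12 two-colour arrays were used. The deposited scanner files hold the intensity of each spot. Their headers name Agilent Feature Extraction 11.0.1.1, and 9.3.2.1 stands in the submitters' processing notes. The authors' value table, used as an alternative, holds log2 ratios of Cy5 over Cy3, since it had a slope of 3.30 to 3.32 on the deposited log10 ratio. Its centring is unknown. Column medians for replicates 1, 2 and 3 were 0.074, 0.048 and 0.11 for silicate 100 nm, 0.087, 0.048 and 0.091 for silicate 20 nm, 0.056, 0.048 and 0.045 for gold 100 nm, and 0.016, 0.033 and 0.045 for gold 20 nm. The median signals (rMedianSignal, gMedianSignal) were corrected here with normexp (offset 50) and normalized by loess in limma 3.58.1 (R 4.3.3, package data.table, version 1.17.8). The 1377 control spots had weight 0, and 149 to 257 outlier spots per array were left out. Of 39429 probes, 28460 were well above background in a channel on all 3 arrays of a group, and the brightest probe stood for its gene. Symbols came through RefSeq accessions of GRCm38.p6, of which 6279 of 32334 had no match.

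One fit of 4 group means gave every comparison, two-sided, and p-values were adjusted over all genes by Benjamini-Hochberg (threshold 0.05). Single-channel levels had Aquantile normalization between arrays. Each adjusted p is from limma. The fit was tested on simulated data.

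Replicate numbers are slide numbers, per the file headers, so they pair the arrays. Deviations from group means correlated at 0.889 to 0.934 within slide 1, 0.0812 to 0.831 within slide 2 and 0.554 to 0.919 within slide 3. Place on the slide and group cannot be told apart. Labels do not say whether tubes were processed apart, so p-values measure the spread between tubes and arrays.

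Particle sizes carry the unit nM in the sample annotation and nm in the protocol, which was followed. The members and lists were chosen with earlier results of these data known. Genes named beside the members were the transcription, loading and interferon-gamma genes that passed a test, preset examples and others of those lists with large shifts, the 6 genes most like the members, and up to 3 per cell type list. Some listed genes are not reported here. Others were chosen after their values were seen, among them Cd80, Cd40, Ifi30, Marchf1, Socs1, Irf8, Nfya, Rfxank, Lyz2, Ms4a7, Lcn2, Camp, Elane and Mpo.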

Additional observations from a re-analysis of the deposited data

How the results depend on the processing

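No class II gene was called in any of the 8 comparisons with the Agilent processed signals, median centring in place of loess, the deposited value table, no filter on dim probes, a filter for both channels on all arrays (which left 5 of the 7 genes), the mean of all kept probes, or the slide as a random block. The replicate block, which uses the pairing by slide, called 1 member over all particles, Ciita at -0.33 with an adjusted p of 0.0192, and changed no other call. That fit takes the spread between slides out of the error.

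Leaving out single slides called no member. The median of the 7 genes then ranged from -0.66 to 1.70 for silicate 100 nm, from -0.59 to 2.27 for silicate 20 nm, from -1.51 to 0.09 for gold 100 nm, from -1.45 to 0.16 for gold 20 nm, from -0.67 to 1.03 for all particles, from 0.23 to 2.19 for silicate minus gold, from -0.24 to -0.06 for 100 nm minus 20 nm, and from -0.43 to -0.25 for the interaction. Of 56 single estimates, 1 had the other sign with the processed signals, 1 with the value table, 15 without replicate 1, 4 without replicate 2 and 21 without replicate 3. The opposite sign appeared for 22 without the 2 silicate arrays of slide 3. Without those arrays the median was -0.66 for silicate 100 nm, -0.59 for silicate 20 nm and -0.59 for all particles. Without replicate 1 as well, a setting added after the data were seen, it was 0.23, 0.75 and 0.30, and silicate minus gold was 0.38. In that setting silicate came from slide 2 alone, 1 array per size, and gold from slides 2 and 3. The 0.38 therefore mixes materials with slides. Within slide 2, silicate minus gold ranged from -0.61 for H2-DMb1 to 0.09 for Ciita, and was above 0 only for Cd74 and Ciita. With the Cy5 levels, also added later, 6 of all genes were called between materials, and 0 members.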

Other observations

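Other cell type lists were read on the same arrays. Rod photoreceptor markers, 8 of 8 measured, had median log2 ratios on slide 3 of -0.98 with silicate 100 nm and -1.01 with silicate 20 nm, against 0.25 with gold 100 nm and 0.09 with gold 20 nm. Sag, rod arrestin, was at -1.30 with silicate and 0.27 with gold on that slide. On slide 1 the rod medians were 0.47, 0.38, 0.62 and 0.64 in the order silicate 100 nm, silicate 20 nm, gold 100 nm and gold 20 nm. The rod list was thus low in the tubes where the class II genes were high. Its 8 genes were called in 0 comparisons by limma, with at most 1 gene per comparison at an unadjusted p under 0.05. Of all genes, 0% to 14.8% were called per comparison and 0.611% to 30% had such a p.

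Muller glia markers, 6 of 6 measured, split. Vim, an intermediate filament also made by immune cells, was at 2.13 with silicate and -0.28 with gold on slide 3, and Glul, glutamine synthetase, at -0.12 and 0.36. Aqp4, the water channel of Muller glia, was higher over all particles by 0.42 (adjusted p = 0.0101 by limma), in a fit that called 14.8% of all genes. With the slide as a random block its adjusted p was 0.316, and with a fixed replicate block, which calls 34.8% of all genes, 0.00565. For Aqp4 too, a dye effect and a change cannot be told apart. The 5 endothelial markers had median ratios on slide 3 of 0.51 with silicate 100 nm and 0.61 with silicate 20 nm. With both gold sizes the median was -0.06 there. On that slide 5 were above 0 with silicate 100 nm and 4 with silicate 20 nm, against 11992 and 11868 of 23237 genes. All 5 were below 0 over all particles, where 11095 of the 23237 genes were above 0. Cdh5, the cadherin of vessels, lay above the list medians on slide 3, at 1.70 with silicate and -0.01 with gold.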
